A study of Mus musculus with 12 samples.

Results

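The genes described here encode heat shock chaperones, the proteins that help other proteins fold and keep damaged proteins from clumping. They are Hspa1a, Hspa1b, Hspa8, Hspa4, Hsph1, Hsp90aa1, Hsp90ab1, Hspd1, Dnaja1 and Dnajb1. They were chosen by name: every gene row of the scanner files whose gene name equals one of these 10 symbols was taken. That gave 15 probes for 9 of the 10 genes, and the series holds 24958 genes with a measured probe in all. No row carries the name or the RefSeq transcript of Hspa1b, so Hspa1b was not analysed here. Of the 9 genes, 8 were well above background on all 12 arrays with the probe that stands for the gene, and Hspa1a was on 6. The list is not wholly cytosolic, because Hspd1 encodes the HSP60 chaperonin of the mitochondrial matrix.

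In the HSP70 cycle, a J domain protein of the HSP40 class hands an unfolded client to HSP70 and makes it hydrolyse ATP. An HSP110 protein then releases the nucleotide, and some clients pass on to HSP90, which matures kinases, receptors and transcription factors. Heat shock factors bind repeated nGAAn units, the heat shock element, in the promoters of the inducible genes. Growing and activated lymphocytes, as other dividing cells, make much of the constitutive members such as Hspa8 and Hsp90ab1.

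The 12 one-colour arrays, in 4 groups of 3, measured B cells purified from the spleens of Balb/c females. The mice were controls or had house dust mite (HDM) allergic asthma, for which the labels give no dose, schedule or age. All groups had the same culture, with a CD40 agonist for 2 days and the bacterial product LPS during the final 5 h, so no group is unstimulated. Flow cytometry then split the cells by whether they secreted IL-10 in a capture assay, which gives 2 groups from control mice (IL-10+ control and IL-10- control) and another 2 from allergic mice (IL-10+ HDM and IL-10- HDM). IL-10 is a cytokine that restrains inflammation, and B cells that secrete it are called regulatory. Nothing in the labels tells whether replicate arrays stem from different mice, cultures or pools, and the p-values then reflect only the scatter between these samples, which may be technical. The cDNA of each sample was amplified by PCR before labelling.

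Levels are on a log2 scale relative to the 75th percentile (P75) of all gene spots on the same array, from the processed signal. A difference is a log2 fold change with its standard error (SE) from limma. A gene was called when its Benjamini-Hochberg adjusted p over all tested genes was under 0.05. Levels of different probes are not set against each other, since probes differ in how brightly they bind.

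The sort label was borne out by Il10, which was 7.59 higher (SE 0.84, adjusted p = 0.0080) in IL-10+ cells over both kinds of mice. Cd9, the surface protein of the series title, was 4.52 higher (SE 0.56, adjusted p = 0.0129). Of 8 B cell markers, 7 were well above background on all 12 arrays. Some markers of other cell types were detected too. The T cell genes Cd3e, Cd4, Cd8a and Lat, the NK cell genes Ncr1 and Prf1, the macrophage genes Cd68 and Csf1r and the dendritic cell genes Flt3 and Siglech were well above background on all 12. Klrk1 (NK cells), Itgax (dendritic cells), S100a8 (neutrophils) and Hbb-b1 (red cells) were on none. IL-10- HDM array 3 stood apart. It had 47.7% of gene spots well above background against 51.6% to 62.4% on the others, and a mean correlation with the other arrays of 0.775 against 0.867 to 0.901. Slide 1 held all 6 IL-10+ arrays and IL-10- control arrays 1 and 2, and slide 2 held IL-10- control array 3 and the 3 IL-10- HDM arrays. Within HDM mice the slide and the sort therefore cannot be told apart. The slide also differed in part between the groups of every other comparison that uses IL-10- cells. HDM against control mice in IL-10+ cells set only arrays of slide 1 against each other.

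A pair of probe sequences is shown first, because the name of Hspa1a depends on what its probe can bind. The Hspa1a probe (mm9 chr17:35107117-35107176, minus strand) and one of the 3 Hspa8 probes (mm9 chr9:40612755-40613050, plus strand, across an intron) lie in the coding sequence of both transcripts. Bases 38 to 60 of the first align without gaps to bases 1 to 23 of the second, and capitals mark the 15 of 23 bases that are the same.
Hspa1a probe: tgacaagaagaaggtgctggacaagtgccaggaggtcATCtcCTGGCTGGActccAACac
Hspa8 probe: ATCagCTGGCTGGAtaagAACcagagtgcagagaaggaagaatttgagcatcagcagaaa
The coding sequences of Hspa1a and its neighbour Hspa1b are nearly identical in mouse, so the signal named Hspa1a here may come from either gene.

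The promoter windows are shown for the heat shock element described above. Whether a pair of units goes with the likeness of members across arrays, given below, was not tested. RefSeq windows of build GRCm38.p6, from 250 bases before to 50 after the start of the gene, were given for 7 members (12 windows). They were searched for GAANNTTC and TTCNNGAA, a pair of heat shock units facing each other, which each read the same on both strands. A pair was found in 6 of the 12 windows, from 5 of the 7 members (Hspa1a, Hspa1b, Hspd1, Dnaja1 and Hsph1). The 2 Hsph1 windows overlap and hold the same pairs. Other windows of Hspd1 and Dnaja1 held none. Of all 32851 windows of that length, 7.86% held GAANNTTC, 8.52% held TTCNNGAA and 15.1% held either. Counted by gene, 17.0% held either. The stretches around the pairs are printed with the matched bases in capitals.
Hspa1a chr17:34972227-34972286: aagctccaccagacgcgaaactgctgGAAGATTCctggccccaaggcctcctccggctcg
Hsph1 chr5:149636336-149636395: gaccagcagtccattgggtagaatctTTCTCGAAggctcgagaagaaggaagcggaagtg
Hspd1 chr1:55088033-55088102: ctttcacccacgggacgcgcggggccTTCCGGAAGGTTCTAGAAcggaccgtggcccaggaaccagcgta
Dnaja1 chr4:40722318-40722377: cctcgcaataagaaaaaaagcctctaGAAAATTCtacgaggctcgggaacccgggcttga
Dnaja1 lies on the plus strand and the other genes shown on the minus strand. The Hspa1b stretch (chr17:34959309-34959368) is the same as that of Hspa1a, and their whole windows share 296 of 300 bases. The capitals of Hspd1 hold overlapping pairs, a run of at least 3 units. Such a run was in 3 member windows, 1 of Hspd1 and the 2 overlapping ones of Hsph1, and in 0.603% of all windows. In Hsph1 it lies after the start of the gene and is not printed. Neither window of Dnajb1 nor the window of Hspa4 held a pair of these exact letters. Hspa8, Hsp90aa1 and Hsp90ab1 had no window and were not searched. A match is a description of the letters, not evidence of binding.

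No member was called in any of the 6 comparisons. The largest shift was in HDM mice, where 8 of the 9 measured members had a lower mean in IL-10+ than in IL-10- cells, with a median log2 fold change of -1.05 against 0.16 over all genes tested. In control mice the median of the members was -0.26 against -0.04 over all genes. Averaged over both kinds of mice it was -0.59 against 0.04. The smallest adjusted p of a member was 0.406 in the averaged comparison, 0.244 in HDM mice and 1.00 in control mice.

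The share of all 24958 genes called gives the background for these counts. It was 0.268% for IL-10+ against IL-10- cells averaged, 0.016% in control mice and 0.168% in HDM mice. It was 0.00401% for HDM against control mice in IL-10+ cells, 0.0481% in IL-10- cells and 0.012% for the interaction, which subtracts the contrast of the control mice from that of the HDM mice. With so few genes called at 3 arrays per group, 0 of 9 members is near the background. At an unadjusted p under 0.05, 2 members were lower in the averaged comparison (Hspd1 and Hspa4), where 3.57% of all genes were. In HDM mice 4 members were lower (Hspd1, Hsp90aa1, Dnaja1 and Hsp90ab1), where 5.58% of all genes were. For HDM against control mice, 1 member was higher in IL-10+ cells (Hspa1a), where 1.63% of genes were, and 1 in IL-10- cells (Hspd1), where 3.74% were. There was 0 in control mice, against 1014 of all 24958 genes in either direction, and 0 for the interaction, against 1612. Both counts of 0 are near those shares.

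**Figure D1:**
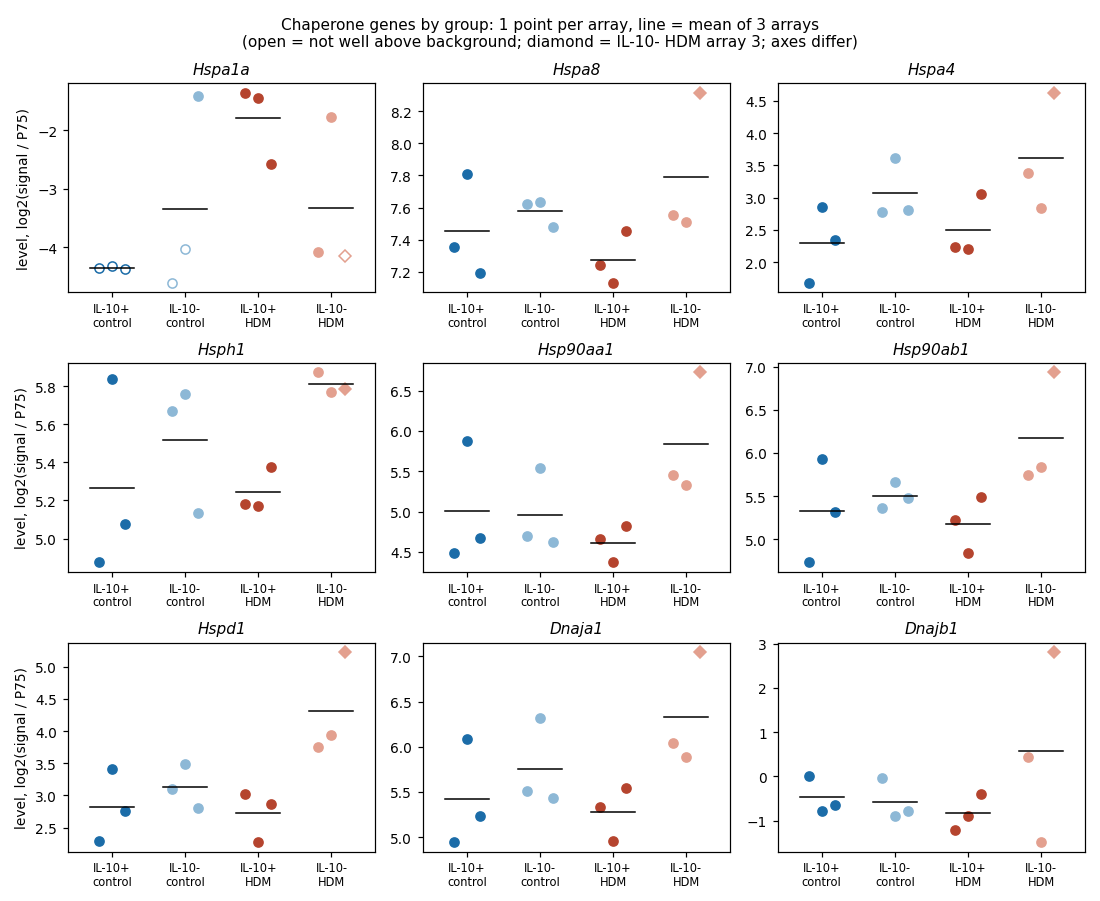
Level of each measured chaperone gene (y axis, log2 of signal over P75; axes differ) on every array of the 4 groups (x axis), with the mean of 3 arrays as a line, open symbols for signals not well above background and a diamond for IL-10- HDM array 3. That array is the highest of all 12 in Hspa8, Hspa4, Hsp90aa1, Hsp90ab1, Hspd1, Dnaja1 and Dnajb1, and Hspa1a is near its lowest on all 3 IL-10+ control arrays.

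Hspa8, which encodes the constitutive cytosolic HSP70 (HSC70), had levels of 7.35, 7.81 and 7.20 on the IL-10+ control arrays and 7.62, 7.64 and 7.48 on the IL-10- control arrays. In HDM mice they were 7.24, 7.13 and 7.45 in IL-10+ cells and 7.55, 7.51 and 8.32 in IL-10- cells. The control groups overlapped, and in HDM mice every IL-10- array lay above every IL-10+ array. The log2 fold change of IL-10+ over IL-10- cells was -0.52 (SE 0.32, adjusted p = 0.492) in HDM mice and -0.13 (SE 0.32) in control mice. Its probe nearest the start of the transcript (mm9 chr9:40611142-40611201) showed -0.09 (SE 0.29) in HDM mice, and there IL-10- HDM array 3 had 7.17, the lowest of its group. The third, toward the end of the transcript (mm9 chr9:40613223-40613282), showed -0.86 (SE 0.49), with 7.52 on that array as the highest of its group. The array that stood apart was thus low with 1 Hspa8 probe and high with the others.

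Hspa1a encodes the stress-inducible HSP70, and its signal was dim. On the IL-10+ control arrays it was -4.36, -4.31 and -4.38, none well above background. On the IL-10+ HDM arrays it was -1.36, -1.45 and -2.58, all well above background. The IL-10- control arrays had -4.61, -4.02 and -1.41, of which only array 3 was well above background, and the IL-10- HDM arrays had -4.07, -1.77 and -4.15, of which arrays 1 and 2 were. Hspa1a was thus detected on 3 of 3 IL-10+ HDM arrays, 0 of 3 IL-10+ control arrays and in part of both IL-10- groups.

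The IL-10+ HDM and IL-10+ control arrays did not overlap, which 5.86% of all genes showed in that direction. The bright mean of -1.80 lay at least 4.75-fold above the dim group, whose bound of -4.05 takes on each array the higher of the probe's own level and the lowest level of any probe well above background. The fitted log2 fold change was 2.55 (SE 0.86, unadjusted p = 0.014, adjusted p = 1.00). The exact two-sided permutation test gave p = 0.1, the smallest that 3 against 3 arrays allow. All 6 of these arrays lay on slide 1, and the difference there was 2.55 with an adjusted p of 0.434. Hspa1a is the 1 member whose IL-10 contrast in HDM mice was above 0, at 1.54 (SE 0.86, adjusted p = 0.453), and the interaction was 2.54 (SE 1.22, adjusted p = 0.757). With the slide as a fixed block its contrast in HDM mice was 4.44 (SE 1.16, adjusted p = 0.381). That value rests on IL-10- control array 3, the 1 array that ties the slides within a group, which lay 2.91 above the mean of arrays 1 and 2 of its group.

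Hspa4 and Hsph1 encode HSP110 proteins, which exchange the nucleotide of HSP70. With the probe that stands for the gene (mm9 chr11:53075085-53075144), Hspa4 had 1.68, 2.85 and 2.34 on the IL-10+ control arrays and 2.77, 3.61 and 2.82 on the IL-10- control arrays. In HDM mice it had 2.23, 2.21 and 3.06 in IL-10+ cells and 3.38, 2.83 and 4.63 in IL-10- cells. Neither pair of groups was fully separate. The averaged log2 fold change was -0.94 (SE 0.37, adjusted p = 0.471). It was -0.77 (SE 0.52) in control mice and -1.11 (SE 0.52) in HDM mice. Within slide 1 the control value was -0.90 (SE 0.50, adjusted p = 0.852).

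The remaining Hspa4 probes lie 1491 and 1738 bases farther along the transcript. Their averaged log2 fold changes were -0.65 (SE 0.35) and -0.86 (SE 1.17), the same sign as the first. IL-10- HDM array 3 had the highest Hspa4 level of all arrays with the first probe, at 4.63. With the second it had 0.42, the lowest of all arrays, and with the third it was not well above background at -5.86. IL-10+ HDM array 3 was not well above background with the third probe either, at -5.44.

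Hsph1 (probe mm9 chr5:150420110-150420169) had 4.87, 5.84 and 5.08 on the IL-10+ control arrays and 5.67, 5.76 and 5.13 on the IL-10- control arrays, which overlapped. In IL-10+ HDM cells it had 5.18, 5.17 and 5.38 and in IL-10- HDM cells 5.87, 5.77 and 5.79, with no overlap. With this probe IL-10- HDM array 3 was within the range of the other 2 arrays of its group. The log2 fold change in HDM mice was -0.57 (SE 0.33, adjusted p = 0.466) and stayed at -0.58 without that array, but was -0.15 after quantile normalization, which gives all arrays one distribution. A second probe, 366 bases farther along, showed -1.09 (SE 0.37, unadjusted p = 0.014, adjusted p = 0.292). With that probe IL-10- HDM array 3 had 6.20, the highest of all arrays, against 5.44 and 5.53 on arrays 1 and 2 of its group.

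Dnaja1 and Dnajb1 encode HSP40 co-chaperones of HSP70. Dnaja1, with the probe at mm9 chr4:40679954-40680014, had 4.94, 6.09 and 5.23 on the IL-10+ control arrays and 5.51, 6.32 and 5.44 on the IL-10- control arrays. It had 5.33, 4.95 and 5.54 in IL-10+ HDM cells and 6.04, 5.89 and 7.05 in IL-10- HDM cells, without overlap. The log2 fold change in HDM mice was -1.05 (SE 0.45, unadjusted p = 0.041, adjusted p = 0.360), or -0.69 when IL-10- HDM array 3 was left out.

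A second Dnaja1 probe, 1984 bases farther along the transcript (mm9 chr4:40681938-40681997), went the other way. Its level was -1.89, -0.46 and -1.32 in IL-10+ HDM cells, and -6.34, -5.76 and -5.81 in IL-10- HDM cells, where no array was well above background. It was -1.05, -2.91 and -1.39 in IL-10- control cells and -1.04, -5.91 and -0.94 in IL-10+ control cells, with control array 2 of the latter not well above background. The IL-10+ HDM mean lay at least 8.15-fold above the IL-10- HDM bound, and the IL-10- control mean at least 5.53-fold above it. In a fit of all 37643 probes the difference in HDM mice was 4.75 (SE 1.16, unadjusted p = 0.0021, adjusted p = 0.168) and the interaction 5.59 (SE 1.64, adjusted p = 0.648). For HDM against control in IL-10- cells it was -4.19 (SE 1.16, adjusted p = 0.321). The direction of Dnaja1 in HDM mice thus depended on the probe, with neither probe called.

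**Figure D2:**
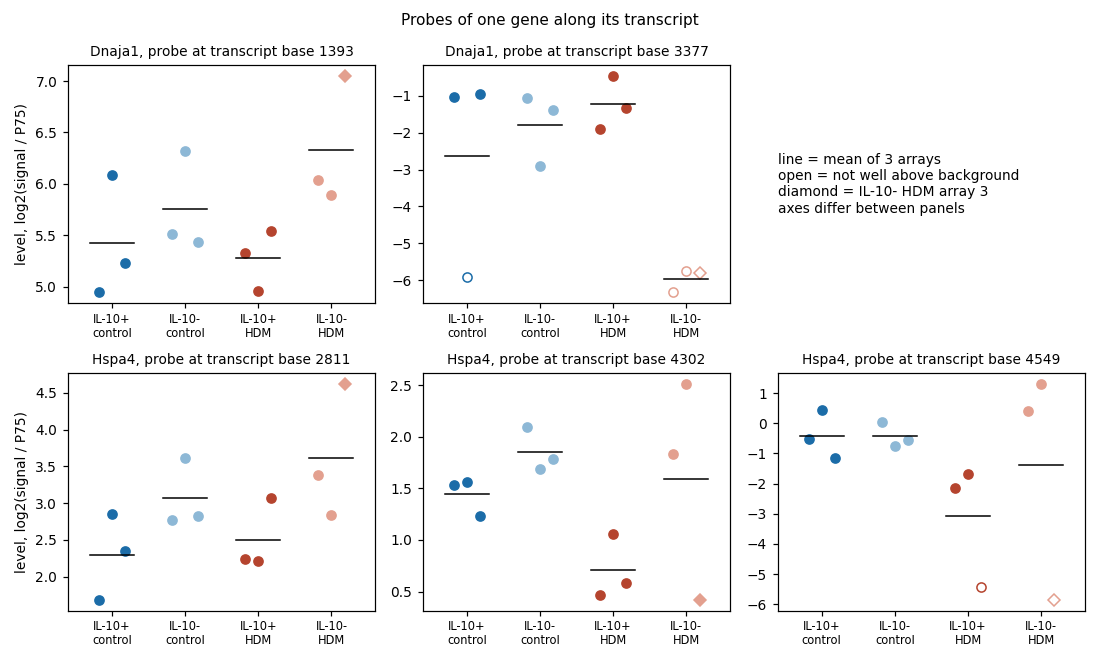
Levels (y axis, log2 of signal over P75; axes differ) of the 2 Dnaja1 probes and the 3 Hspa4 probes on every array of the 4 groups (x axis), ordered by the first base of the probe in the transcript, with means as lines and open symbols for signals not well above background. The Dnaja1 probe at base 3377 is open on all 3 IL-10- HDM arrays, while the one at base 1393 is higher there than in IL-10+ HDM cells.

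Dnajb1 (mm9 chr8:86135660-86135719) had 0.01, -0.78 and -0.65 on the IL-10+ control arrays, -0.04, -0.89 and -0.79 on the IL-10- control arrays, -1.22, -0.88 and -0.41 on the IL-10+ HDM arrays and 0.43, -1.49 and 2.81 on the IL-10- HDM arrays. All groups overlapped. The SD of the IL-10- HDM group was 2.15, against 0.41 to 0.46 in the other groups. The log2 fold change in HDM mice was -1.42 (SE 0.86, adjusted p = 0.481) with all arrays and -0.31 (SE 0.58) without IL-10- HDM array 3, so that 1 array set most of its size.

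Hsp90aa1 and Hsp90ab1 encode the inducible and the constitutive cytosolic HSP90. Hsp90aa1 (mm9 chr12:111929248-111929307) had 4.49, 5.88 and 4.67 in IL-10+ control cells and 4.70, 5.54 and 4.63 in IL-10- control cells. It had 4.66, 4.37 and 4.82 in IL-10+ HDM cells and 5.46, 5.33 and 6.72 in IL-10- HDM cells. The control groups overlapped and the HDM groups did not. The log2 fold change was 0.05 (SE 0.50) in control mice and -1.22 (SE 0.50, unadjusted p = 0.035, adjusted p = 0.348) in HDM mice, where the exact permutation test gave p = 0.1. The interaction was -1.28 (SE 0.71, adjusted p = 0.758), so a difference between control and HDM mice was not shown.

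Hsp90ab1 (mm9 chr17:45704788-45704847) had 4.73, 5.93 and 5.32 in IL-10+ control cells, 5.36, 5.66 and 5.48 in IL-10- control cells, 5.22, 4.84 and 5.48 in IL-10+ HDM cells and 5.74, 5.83 and 6.93 in IL-10- HDM cells. As for Hsp90aa1, the overlap was in control mice only. Its log2 fold change in HDM mice was -0.99 (SE 0.43, unadjusted p = 0.043, adjusted p = 0.363), or -0.60 when IL-10- HDM array 3 was left out.

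Hspd1, the mitochondrial member (mm9 chr1:55134697-55134756), had the lowest p of the 9 genes. Its levels were 2.29, 3.41 and 2.77 in IL-10+ control cells and 3.09, 3.48 and 2.81 in IL-10- control cells. They were 3.02, 2.27 and 2.87 in IL-10+ HDM cells and 3.76, 3.94 and 5.23 in IL-10- HDM cells. All IL-10- HDM arrays lay above all other arrays. The log2 fold change in HDM mice was -1.59 (SE 0.47, unadjusted p = 0.0068, adjusted p = 0.244), or -1.13 (SE 0.41) when IL-10- HDM array 3 was left out. For HDM against control mice in IL-10- cells it was 1.18 (SE 0.47, unadjusted p = 0.030, adjusted p = 0.513), and 0.72 without that array. In control mice it was -0.31 (SE 0.47), and -0.46 (SE 0.44) within slide 1.

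**Figure D3:**
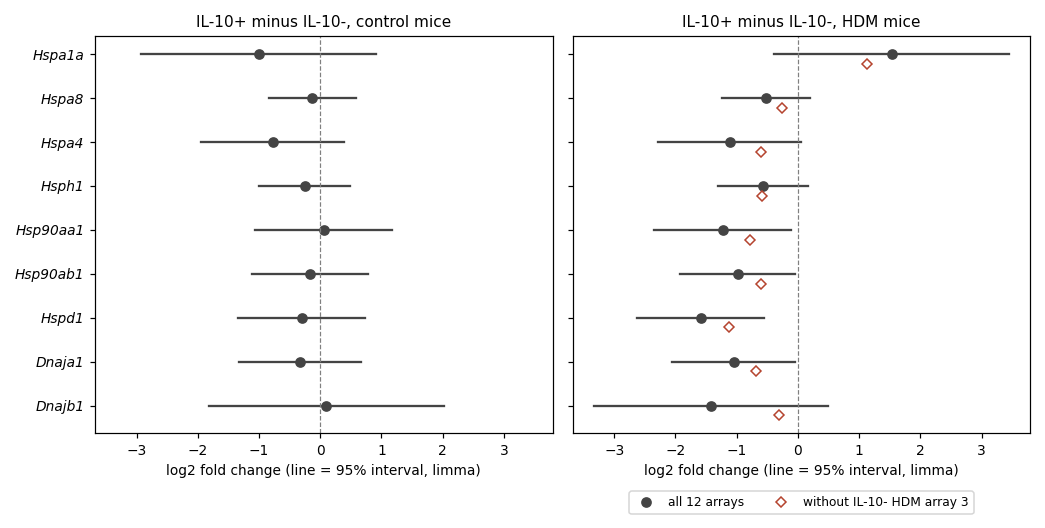
Log2 fold change of IL-10+ over IL-10- cells (x axis) for the 9 measured genes (y axis) in control mice and in HDM mice, with the 95% interval from limma as a line and, for HDM mice, the value without IL-10- HDM array 3 as a diamond. In HDM mice 8 of 9 points lie below 0, and most move toward 0 without that array, Hspd1 from -1.59 to -1.13 and Dnajb1 from -1.42 to -0.31.

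Across members, IL-10+ HDM arrays lay wholly below IL-10- HDM arrays for 6 of 9 genes (Dnaja1, Hsp90aa1, Hsp90ab1, Hspa8, Hspd1 and Hsph1), where 11.2% of all genes did. After quantile normalization it was 4 of 9 (Dnaja1, Hsp90aa1, Hspa8 and Hspd1), where 11.4% of all genes did. Without IL-10- HDM array 3 the count was 6 of 9 against 16.2%. In IL-10- cells, HDM arrays lay wholly above control arrays for 3 of 9 (Hsp90ab1, Hspd1 and Hsph1), against 5.73% of all genes, and for 1 of 9 (Hspd1) against 7.53% after quantile normalization. In control mice no member had all IL-10+ arrays below the IL-10- arrays, against 4.70% of all genes. After quantile normalization 1 member, Hspa4, did, against 4.86%. A count of 1 of 9 is near these shares. All these counts use 1 probe a gene. In HDM mice the second Dnaja1 probe had all IL-10+ arrays above the IL-10- arrays, and both other Hspa8 probes overlapped. The second Hsph1 probe kept the separation in HDM mice, but overlapped between HDM and control arrays of IL-10- cells. The members are not independent observations, as the next values show, and these counts were not tested.

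The levels of 7 members followed each other from array to array. Leaving out Hspa1a and Dnajb1, the Pearson correlation of 21 pairs over the 12 arrays was 0.69 to 0.97 with a median of 0.90, and 0.65 to 0.94 with a median of 0.83 over the 11 arrays without IL-10- HDM array 3. Dnajb1 correlated with the 7 by a median of 0.62 over 12 arrays and -0.06 over 11. Hspa1a correlated with the others by -0.49 to -0.24 over 12 arrays. All these points share the scaling of their array, so the correlations are a description.

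In every group but IL-10+ HDM, the array with the fewest detected spots had the highest mean of the members. The mean level of the 8 members that were detected everywhere was 5.93 on IL-10- HDM array 3, where 47.7% of spots were well above background. It was 4.63 on IL-10+ control array 2 (51.6%) and 4.64 on IL-10- control array 2 (54.1%), each the highest mean and the lowest share of its group. On IL-10+ HDM array 2, which had 62.1%, it was 3.76, the lowest mean of all 12. Arrays with like shares differed. IL-10- HDM array 1 had a mean of 4.78 at 57.6% and IL-10+ HDM array 1 a mean of 3.96 at 57.7%, and IL-10- HDM array 2 had 4.45 at 56.5%. Within IL-10+ HDM cells the highest mean was 4.27, on array 3 at 59.1%. The distribution of all probes moved too. The 95th percentile lay 4.73 above P75 on IL-10- HDM array 3 and 4.33 on IL-10+ control array 2. It lay 4.24 above P75 on IL-10- control array 2, and 4.26 and 4.18 on IL-10- HDM arrays 1 and 2. On the other arrays it lay 3.81 to 3.98 above. Its part in the member differences was not tested. The group means of the 8 members were 4.14 ± 0.43 in IL-10+ control, 4.37 ± 0.26 in IL-10- control, 3.997 ± 0.26 in IL-10+ HDM and 5.06 ± 0.78 in IL-10- HDM cells (SD, n = 3). After quantile normalization they were 4.18 ± 0.25, 4.44 ± 0.16, 4.09 ± 0.23 and 4.81 ± 0.49.

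**Figure D4:**
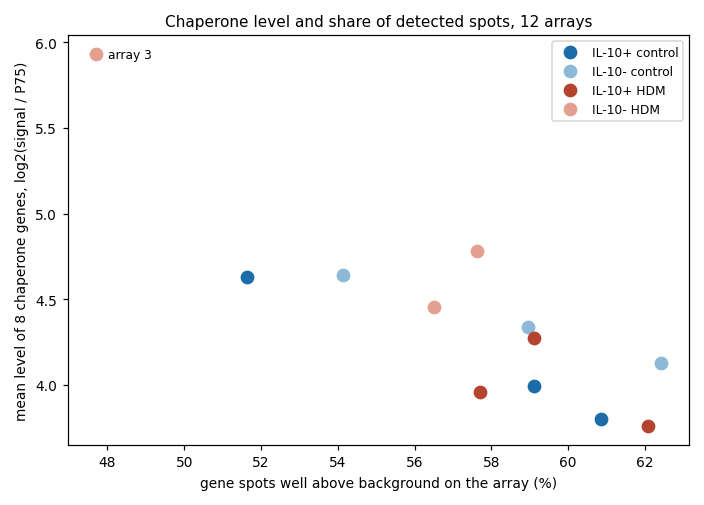
Mean level of the 8 chaperone genes detected on all arrays (y axis, log2 of signal over P75) against the percent of gene spots well above background (x axis), 1 point per array and colours for the 4 groups. IL-10- HDM array 3 lies alone at 47.7% and 5.93, and the other arrays lie between 3.76 and 4.78.

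The summed level of the 8 B cell markers, as signal over P75, also ran highest in IL-10- HDM cells, at 171 to 292 against 103 to 176 in IL-10- control cells, 147 to 184 in IL-10+ HDM cells and 112 to 168 in IL-10+ control cells. The sum of 7 T cell markers was 2.71 to 6.08 in IL-10- HDM cells and 2.64 to 4.58 across the other groups. That of 5 monocyte and macrophage markers was 7.72 to 9.86 and 6.998 to 17.4, respectively. The sum of 5 dendritic cell markers was 75.9 to 93.5 in IL-10- HDM cells, 59.6 to 86.7 in IL-10- control cells, 70.0 to 72.4 in IL-10+ HDM cells and 58.8 to 78.0 in IL-10+ control cells. That of 5 NK cell markers was 2.17 to 3.16 in IL-10- HDM cells and 0.87 to 4.15 across the others. Their part in the member differences was not tested. In such bulk samples fewer cells of a type and less RNA per cell cannot be told apart.

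**Figure D5:**
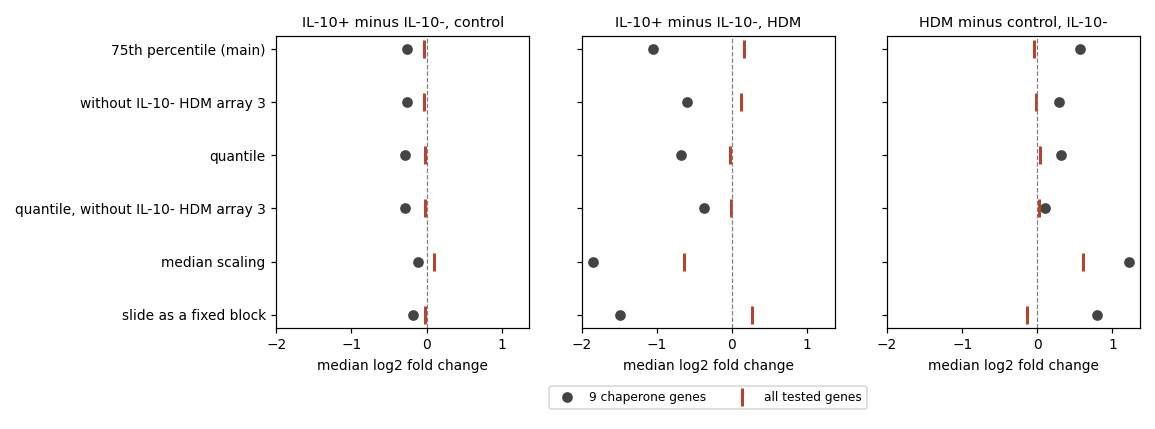
Median log2 fold change (x axis) of the 9 chaperone genes (points) and of all tested genes (bars) in 3 comparisons under 6 ways of processing (y axis). In HDM mice the members lie below the median of all genes under each of the 6, from -0.38 after quantile normalization without IL-10- HDM array 3 to -1.85 under median scaling, where all genes lie at -0.64.

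Genes beside the members came from 10 lists with 133 symbols, of which 132 were on the array and 125 were tested. The lists cover the chaperone network and also immediate early genes, which are not chaperones. Over the 6 comparisons 1 call was made among them. Dnajb9, an HSP40 protein of the endoplasmic reticulum, was lower in IL-10+ cells, at -1.66 averaged over both kinds of mice (SE 0.24, adjusted p = 0.026), and -1.68 when IL-10- HDM array 3 was left out. When the slide entered as a fixed block, that comparison yielded 0 calls over all 24958 genes, so Dnajb9 was not called there. Only IL-10- control array 3 ties the slides within a group. In the averaged comparison 16 of the 125 (12.8%) were lower at an unadjusted p under 0.05, against 3.57% of all genes. At the same threshold 6 (4.8%) were higher, against 5.59% of all genes. Of the 16 lower genes, 8 were among the 21 immediate early genes and 3 among the mitochondrial chaperones. The co-chaperone and endoplasmic reticulum lists had 2 each and the heat shock factor list 1. The lists of other HSP70 genes, J domain proteins, small heat shock proteins, CCT and proteasome genes had 0. These genes do not vary independently, and the counts were not tested. The lists are described by their medians in the averaged comparison, where all tested genes had 0.04, and a median in parentheses is the value without IL-10- HDM array 3. Some of the genes named were not well above background on every array.

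Among 4 tested genes of the heat shock factor list none was called. Hsf1, the main heat shock factor, was at 0.81 (SE 0.58) and was well above background on 7 arrays. That average joined opposite signs, -1.82 (SE 0.82) in control mice and 3.45 (SE 0.82) in HDM mice. Hsbp1, which encodes a small protein that binds the Hsf1 product, was at -1.04 (SE 0.46), Hsf2 at -0.85 (SE 1.12) and Hsf4 at -0.05 (SE 0.27). Without IL-10- HDM array 3, Hsf2 was at -0.13 and Hsf4 at 0.05, and the median of the list went from -0.45 to -0.04. In IL-10- HDM cells Hsf1 was well above background on 0 of 3 arrays, and the IL-10+ HDM mean of -2.81 lay at least 2.72-fold above the bound of that group (adjusted p = 0.166 for the fitted difference). The IL-10- control mean of -1.80 lay at least 5.45-fold above it (adjusted p = 0.137). Hsbp1, detected on all arrays, was at -2.25 (SE 0.66, adjusted p = 0.238) in HDM mice.

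The 3 tested genes of the other HSP70 and HSP110 list had values of 0.84 (Hspa12b), 0.89 (Hspa1l) and -0.55 (Hspa14). Without IL-10- HDM array 3 Hspa1l was at 0.07, and the median of the list went from 0.84 to 0.07. Of 14 J domain proteins 9 were below 0, with a median of -0.03 (-0.01), or 0.08 after quantile normalization. Dnaja4 was at 2.54 (SE 0.61, adjusted p = 0.165), Dnajb14 at 0.57 (SE 0.24), Dnaja2 at -0.51 and Dnajc7 at -0.46, the last 2 at -0.32 and -0.25 without IL-10- HDM array 3. Dnaja4 was well above background on all IL-10+ arrays but on 2 of 3 in each IL-10- group. Dnaja4, a close relative of Dnaja1, had the opposite sign to the probe that stands for Dnaja1 (-0.69, SE 0.32). The second Dnaja1 probe had the same sign as Dnaja4, at 1.95 (SE 0.82). Neither gene was called.

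Of 21 co-chaperones of HSP70 and HSP90, 16 were below 0 and the median was -0.35 (-0.25), or -0.17 after quantile normalization. The ubiquitin ligase gene Stub1 was at -0.93 (SE 0.40, adjusted p = 0.527) and Hspbp1, which encodes a nucleotide exchange factor, at -0.81 (SE 0.35, adjusted p = 0.532). Bag2 was at 2.38 (SE 0.75, adjusted p = 0.332) and Bag3 at 0.99 (SE 0.46, adjusted p = 0.559), 2 genes whose proteins bind HSP70 through a BAG domain. Bag2 was well above background on 1 of 3 IL-10- HDM arrays and on all arrays of the other groups. In HDM mice the median of this list was -0.64, and -0.34 after quantile normalization.

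For the small heat shock proteins the median over 7 tested genes was 0.25 (0.16), or -0.03 after quantile normalization, with Hspb6 at 0.79, Cryab at -0.29, Hspb7 at 0.35 and Hspb3 at 0.27 (0.16 without IL-10- HDM array 3). The cytosolic chaperonin CCT and prefoldin had 12 of 13 genes below 0 and a median of -0.19 (-0.15), with Cct5 at -0.66 (-0.37 without that array), Cct4 at -0.32, Pfdn5 at -0.31 (-0.19 without it) and Tcp1 at -0.28. After quantile normalization their median was -0.01, so the shift of this list depended on the scaling. Of 11 mitochondrial chaperones, which share their compartment with the product of Hspd1, 7 were below 0 and the median was -0.35 (-0.24). Hspe1, which encodes the HSP10 partner of HSP60, was at -0.68 (SE 0.34, adjusted p = 0.595), Hscb at -1.99 (SE 0.81), Dnaja3 at -1.15 (SE 0.47) and Grpel1 at -0.77 (SE 0.35). Hscb was well above background on 1 of 3 IL-10+ HDM arrays, 2 of 3 in each control group and all IL-10- HDM arrays.

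Besides Dnajb9, the endoplasmic reticulum list of 13 had a median of -0.17 (-0.10), or -0.02 after quantile normalization, with Pdia6 at -0.95 (SE 0.36, adjusted p = 0.451), Canx at -0.76 and Calr at -0.54. Without IL-10- HDM array 3 Canx was at -0.30 and Calr at -0.26. Of 18 genes of protein stress and the proteasome, 11 were below 0, with a median of -0.07 (-0.14), or 0.10 after quantile normalization. Hmox1, the haem oxygenase of the oxidative stress response, was at 1.12 (SE 0.40, adjusted p = 0.414), Herpud1 at 1.60 (SE 0.68), Psmb5 at -0.75 and Vcp at -0.55. Without that array Herpud1 was at 0.96 and Vcp at -0.31. Among 21 immediate early genes, which respond within minutes to receptor signals and handling, 18 were below 0 with a median of -0.74 (-0.48). Nr4a1 was at -1.61 (SE 0.32, adjusted p = 0.092), Fosb at -1.97 (SE 0.48, adjusted p = 0.172), Dusp1 at -2.12 (SE 0.57, adjusted p = 0.231) and Jun at 0.79 (SE 0.25, adjusted p = 0.336).

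Among the genes whose pattern was most like the mean of the members over all 12 arrays were Brd7 (Pearson r = 0.971), Rnf4 (0.970), Ing5 (0.970), Pitrm1 (0.970), Pop4 (0.967), Gm13249 (0.965) and Sf3a3 (0.964). Over the 11 arrays without IL-10- HDM array 3 they were Ptbp2 (0.945), Slc39a6 (0.945), Dgkd (0.942), Rnf4 (0.940), Pitrm1 (0.937), Ddx10 (0.937), Brd7 (0.934) and Ifrd1 (0.929). Brd7, Rnf4 and Pitrm1 were named over both 12 and 11 arrays. The pattern was a common one, since 6.07% of 14539 genes had an r above 0.8 with it over 12 arrays and 2.37% over 11.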

How the data were processed

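The members and gene lists were chosen with earlier results of these data known. Per the labels' protocols, cDNA from bead-isolated mRNA was amplified by PCR and 250 ng labelled with Cy3. Per the file headers, Agilent arrays of design 028005 (build mm9) were read with Feature Extraction 10.7.3.1. In the scanner files as deposited, the intensity of each spot is a background-subtracted processed signal, beside other per-spot flags (well above background, outlier). The deposited value table is a ratio, the processed signal over the array's median, within 0.00077%, and served as the median scaling. The number of arrays limits the precision.

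Processed signals were divided by the 75th percentile of the array's 59305 gene spots, before log2. Of 55681 probes, those well above background on at least 3 of 12 arrays were kept, without 79 marked as outliers, and the probe with the highest mean stood for a gene. limma 3.58.1 in R 4.3.3 fitted 4 group means to all arrays, with 6 comparisons and 8 residual degrees of freedom. The script was tested on simulated data. All member probes are named. Of each list, called genes and otherwise up to 4 with the lowest p in the averaged comparison are named. The 8 most alike genes were taken by Pearson r. Items named by these rules that are withheld are not reported here.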

Additional observations from a re-analysis of the deposited data

How the results depend on the processing

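No member was called under any of 27 alternatives, whose lowest adjusted p was 0.138. Slide 1 alone and fits of only the groups compared covered fewer comparisons, and the filter for probes well above background on all arrays left out Hspa1a. The medians below are of the members' log2 fold changes. For IL-10+ against IL-10- cells of HDM mice the median was -1.05. It was -1.85 under median scaling, which shifts all genes by -0.80 there, and -0.38 after quantile normalization without IL-10- HDM array 3, an alternative chosen after seeing the data. For HDM against control mice in IL-10- cells the median was 0.57, and those settings gave 1.22 (all genes shifted by 0.65) and 0.10. For the interaction it was -0.72, and they gave -1.65 (shifted by -0.93) and -0.11. Leaving out 1 array at a time gave -1.27 to -0.60 in HDM mice, 0.28 to 0.83 in IL-10- cells and -0.96 to -0.35 for the interaction, the end nearest 0 each time without IL-10- HDM array 3. It gave -0.73 to -0.39 in the averaged comparison, -0.54 to -0.08 in control mice and -0.26 to 0.19 in IL-10+ cells. The slide as a fixed block, which only IL-10- control array 3 ties within a group, gave -1.49 in HDM mice. That fit yielded 0 calls over all genes both in HDM mice and averaged over the 2 kinds of mice. The labels do not say whether replicate numbers pair the arrays. In deviations from group means, 18 same-numbered pairs correlated by -0.14 to 0.15 and 36 other pairs by -0.19 to 0.13. Same-numbered IL-10+ and IL-10- arrays of the same kind of mice correlated by 0.02 to 0.15. These values cannot settle a pairing, since each group mean rests on only 3 arrays. The replicate block left the HDM median at -1.05 with 0 members called and a smallest adjusted p of 0.320, and the genes called fell from 42 to 17. Over the alternatives of the gene-level fit, the genes called among all tested ranged from 0 to 139 in the averaged comparison (67 in the fit reported), 0 to 12 in control mice (4), 0 to 214 in HDM mice (42), 0 to 6 for HDM in IL-10+ cells (1), 0 to 130 in IL-10- cells (12) and 0 to 14 for the interaction (3).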
